A study of Mus musculus with 3 samples.

Results

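Doublecortin (Dcx), the stathmins Stmn1 and Stmn2, the β-tubulins Tubb3, Tubb2a and Tubb2b and the α-tubulins Tuba1a and Tuba1b were followed as 8 genes of the 15535 listed in at least 1 of the count tables. They were chosen by name with earlier results of these data known, and all 8 were listed in every table. The tables came from droplet-based single-cell RNA sequencing of mouse dentate gyrus, with 1 library for each of 3 groups. The control group was 8 weeks old and kept under standard housing, the runner group were littermates of the same age with a running wheel for 12 days, and the aged group was 14 months old without a wheel. The strain label of the libraries names hGFAP-eGFP, a green fluorescent reporter driven by the human GFAP promoter, whereas the design text calls the adult animals wild type and the 14-month-old animals hGFAPeGFP. The number of mice behind a library is not given, and no cell sort is described. With 1 library per group, no comparison between groups has a replicate check, and every interval below covers counting error only.

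Microtubules are hollow polymers of α- and β-tubulin dimers, and they carry the shape change, migration and process growth of young neurons. Doublecortin binds and stabilises them and is the usual marker of newborn granule neurons in the dentate gyrus, while stathmins bind free tubulin dimers and favour disassembly. Tubb3 is the β-tubulin used as a marker of neurons, Tubb2a, Tubb2b and Tuba1a are abundant in developing neurons, and Tuba1b is an α-tubulin made by most cell types.

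The libraries held 2330698 unique molecular identifiers (UMIs, each standing for 1 captured RNA molecule) for control, 3808360 for runner and 2537567 for aged. Cells used were barcodes with at least 200 genes and under 10% of UMIs from mitochondrially encoded genes, which left 512 control, 963 runner and 391 aged cells of 8105 barcodes after removal of 10 doublet calls. Their median depth was 1460, 1747 and 1409 UMIs. Cells were clustered without the 8 genes and without the other microtubule genes listed here, so the class names rest on other markers; each name means that the cluster's leading genes were like those of that cell type. Of the barcodes, 28 sequences occurred in more than 1 library, 2 of them among the cells used. Levels are given as CPM, the UMIs of a gene per 1000000 UMIs of the cells in a class. Counting at the 3' end is not scaled by gene length.

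The α-tubulin pair and the Tubb2 pair are close copies, which bears on how UMIs were assigned to them. In the GRCm38 build Tuba1a (chromosome 15, 98949837 to 98953703) and Tuba1b (chromosome 15, 98931425 to 98934565) lie 15.3 kb apart on the minus strand, and Tubb2a (chromosome 13, 34074274 to 34078007) and Tubb2b (chromosome 13, 34126748 to 34130466) lie 48.7 kb apart, also on the minus strand. The coding sequences of Tuba1a and Tuba1b are 98.3% identical over 1356 bases, and those of Tubb2a and Tubb2b 96.5% identical over 1338 bases. The last 60 coding bases before the stop codon encode the acidic tail, in which tubulin isotypes differ most. They are shown for the Tubb2 pair, which differs there at 3 bases, in capitals in each. Read in frame, these 3 bases change no amino acid, so both copies encode the same protein stretch there.
Tubb2a: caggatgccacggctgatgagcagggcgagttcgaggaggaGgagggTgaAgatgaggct
Tubb2b: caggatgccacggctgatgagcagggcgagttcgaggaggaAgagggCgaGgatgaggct
Tubb3 has a longer coding sequence, of 1353 bases. Counted back from the stop codon without gaps, it differs from Tubb2b at 35 of 60 bases, again in capitals. Because the lengths differ, these bases are not aligned, and 35 does not measure how far the isotypes have diverged.
Tubb3: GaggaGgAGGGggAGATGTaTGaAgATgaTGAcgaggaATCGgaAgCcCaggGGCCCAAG
Of the 50-base stretches in the last 500 bases of the transcripts, 56.3% for Tuba1a, 63.6% for Tuba1b and 42.4% for Tubb2a also occurred in transcripts of another gene. The share was 33.0% for Stmn1, all of it with the transcript Gm11223, 0.831% for Dcx, and 0 for Stmn2, Tubb3 and Tubb2b. How the authors' counting treated reads of shared stretches was not checked. The levels of Tuba1a, Tuba1b, Tubb2a and Stmn1 are therefore less certain than those of Dcx, Stmn2, Tubb3 and Tubb2b. The same holds for the split within the Tuba1 pair.

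Dcx (chromosome X, 143855842 to 143933311, minus strand) was concentrated in neuroblast-like cells, the class led by Sox11, Nnat, Calb2 and Neurod1. The class had 32 control, 171 runner and 12 aged cells, in which its 11 markers summed to 8106, 8633 and 8188 CPM, with 0, 0 and 3 of them at 0. Its level there was 477 CPM in control (95% Poisson interval 295 to 729, 21 UMIs), 519.9 in runner (446 to 602, 177 UMIs) and 916 in aged (533 to 1466, 17 UMIs). The 3 intervals overlapped, which does not test a difference between libraries. With aged as the reference, the runner ratio was 0.568. Dcx in neuroblast-like cells was 4.5-fold (1.1 to 39.6) the level of cycling cells in control and 4.16-fold (1.87 to 11.5) in runner. Cycling cells came next in order in both. In aged it was 4.99-fold (1.97 to 14.2) that of oligodendrocyte precursor-like cells. Oligodendrocyte precursor-like cells held 3, 4 and 7 Dcx UMIs in control, runner and aged (57.3, 44.1 and 183 CPM). No Dcx UMI was found in 192 oligodendrocyte-like or 240 astrocyte-like cells, and microglia-like cells had 2 in 799 cells. With each cell thinned to 1000 UMIs, 82 of 204 neuroblast-like cells carried Dcx (40.2%) against 7 of 80 oligodendrocyte precursor-like cells (8.75%) and 1 of 631 microglia-like cells (0.158%). Microglia should lack the gene, so the last share stands for background; median depth before thinning was 1847 UMIs in neuroblast-like and 1500 in microglia-like cells.

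Tubb3 (chromosome 8, 123411424 to 123422015, plus strand) followed Dcx most closely. Neuroblast-like cells had 1089.9 CPM in control, 1222 in runner and 754 in aged, which was 7.42-fold (3.6 to 17.2), 6.0-fold (4.01 to 9.38) and 5.01-fold (1.89 to 14.7) the level of Cajal-Retzius-like cells. Cajal-Retzius cells are early-born neurons of the marginal layer. Their Tubb3 levels were 147, 204 and 150.5 CPM. In oligodendrocyte precursor-like cells the aged library was highest, at 367 CPM on 14 UMIs against 95.5 on 5 UMIs in control, a ratio of 3.84 (1.31 to 13.6), and there neuroblast-like cells stood 2.06-fold (0.909 to 4.65) above them, within counting error. Over 25 pools of class and library with at least 10 cells, Dcx and Tubb3 had the highest correlation of any pair of the 8 genes (Pearson r = 0.77 of log2(CPM + 20), as a description; pools of 1 library share its depth).

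Because Dcx and Tubb3 had the most similar patterns, the bases before their starts are shown, cut at the earliest annotated start so that no transcribed base is included. The Dcx stretch is chrX:143933312-143933469 on the minus strand (158 bases) and the Tubb3 stretch chr8:123411303-123411423 on the plus strand (121 bases), both from RefSeq's GRCm38.p6 promoter table, in which 5 of the 8 genes matched. Capitals mark 3 motifs, each searched on both strands and none overlapping another. The TATA box was searched as TATAAA. The CCAAT box was searched by those letters. The GC box was searched as GGGCGG. An E-box (CAGCTG) and a Sox core motif (ACAAAG) were also searched, with 0 found in either stretch.
Dcx: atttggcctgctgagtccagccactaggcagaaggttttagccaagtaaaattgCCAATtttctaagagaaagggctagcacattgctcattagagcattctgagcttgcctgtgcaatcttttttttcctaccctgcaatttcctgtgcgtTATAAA
Tubb3: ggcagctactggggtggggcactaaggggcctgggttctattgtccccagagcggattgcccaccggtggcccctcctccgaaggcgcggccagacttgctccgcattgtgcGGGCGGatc
The Dcx stretch held 1 TATA box and 1 CCAAT box, present in 7.57% and 21.2% of all 32851 promoters cut to 158 bases. TATAAA ended the Dcx stretch, directly before the earliest annotated start. The Tubb3 stretch held neither TATA nor CCAAT box and had 1 GC box, found in 12.9% of promoters cut to 121 bases. Each cut kept the bases farthest from a promoter's start and dropped those nearest to it. These percentages are therefore not shares of promoters with the motif next to the start. G and C made up 42.4% of the Dcx stretch and 67.8% of that of Tubb3. None of the 3 marked motifs occurred in both stretches.

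Tubb2b and Tuba1a were highest in neuroblast-like cells too but were not limited to them. Tubb2b stood at 1635 CPM in control, 2135 in runner and 1401 in aged, against 702, 928 and 629 CPM in astrocyte-like cells, ratios of 2.33 (1.63 to 3.33), 2.3 (1.94 to 2.75) and 2.23 (1.33 to 3.65). Oligodendrocyte precursor-like cells followed with 363, 584 and 681 CPM, and oligodendrocyte-like cells held 5 UMIs of Tubb2b in all. Tuba1a stood at 3633, 5155 and 2532 CPM in neuroblast-like cells and at 3036, 3561 and 1939 CPM in oligodendrocyte precursor-like cells. The ratio between them was 1.45 (1.29 to 1.64) in runner, while those of 1.2 (0.955 to 1.5) in control and 1.31 (0.886 to 1.91) in aged were within counting error. Mature oligodendrocyte-like cells had 1315, 1253 and 1217 CPM.

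Stmn1 (chromosome 4, 134468320 to 134473843, plus strand) was high in 4 classes, among them oligodendrocyte-like cells, and low in oligodendrocyte precursor-like cells. Cajal-Retzius-like cells had 4539, 5377 and 2838 CPM in control, runner and aged, neuroblast-like cells 3202, 4841 and 2586, and oligodendrocyte-like cells 3727, 3860.0 and 3595. Cycling cells, with too few cells in aged, had 3603 and 4481 CPM in control and runner. Neuroblast-like cells lay below Cajal-Retzius-like cells in control (0.705, 0.572 to 0.867) and runner (0.9, 0.822 to 0.987), and in aged the ratio was 0.911 (0.641 to 1.28). Granule neuron-like cells came next, with neuroblast-like cells 6.22-fold (4.19 to 9.5), 13.8-fold (10.6 to 18.5) and 5.34-fold (2.9 to 10.5) above them. Oligodendrocyte precursor-like cells held 7 Stmn1 UMIs in 91 cells (38.6 CPM) against 1465 in 192 oligodendrocyte-like cells (3787 CPM). In cells thinned to 1000 UMIs, 165 of 171 oligodendrocyte-like cells carried it (96.5%) and 3 of 80 precursor-like cells (3.75%).

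Stmn2 (chromosome 3, 8509360 to 8561606, plus strand), a stathmin of growing axons, was highest in Cajal-Retzius-like cells. It measured 735, 1010.2 and 989 CPM there and 499.5, 429 and 269 CPM in neuroblast-like cells. The ratio was 2.36 (1.84 to 3.01) in runner and 3.67 (1.46 to 11.8) in aged, and 1.47 (0.865 to 2.57) in control, within counting error. Oligodendrocyte precursor-like and cycling cells had no Stmn2 UMI. Tubb2a showed no leading class: the highest was Cajal-Retzius-like cells in control (278 CPM) and runner (529.5 CPM) and astrocyte-like cells in aged (257 CPM), and in each library the class that came next differed by less than counting error. Tuba1b was highest in cycling cells, at 2014 CPM in control and 2084 in runner, 3.63-fold (2.22 to 5.94) and 3.32-fold (2.44 to 4.53) above Cajal-Retzius-like cells, and all 3 libraries of microglia-like cells had it at 347 to 461 CPM. Cycling cells (10 control, 15 runner and 3 aged) were named by cell-cycle genes. Their leading genes included Ccl4, which also led microglia-like clusters, and Sox11, which led neuroblast-like cells, so the class may mix cell types.

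**Figure D1:**
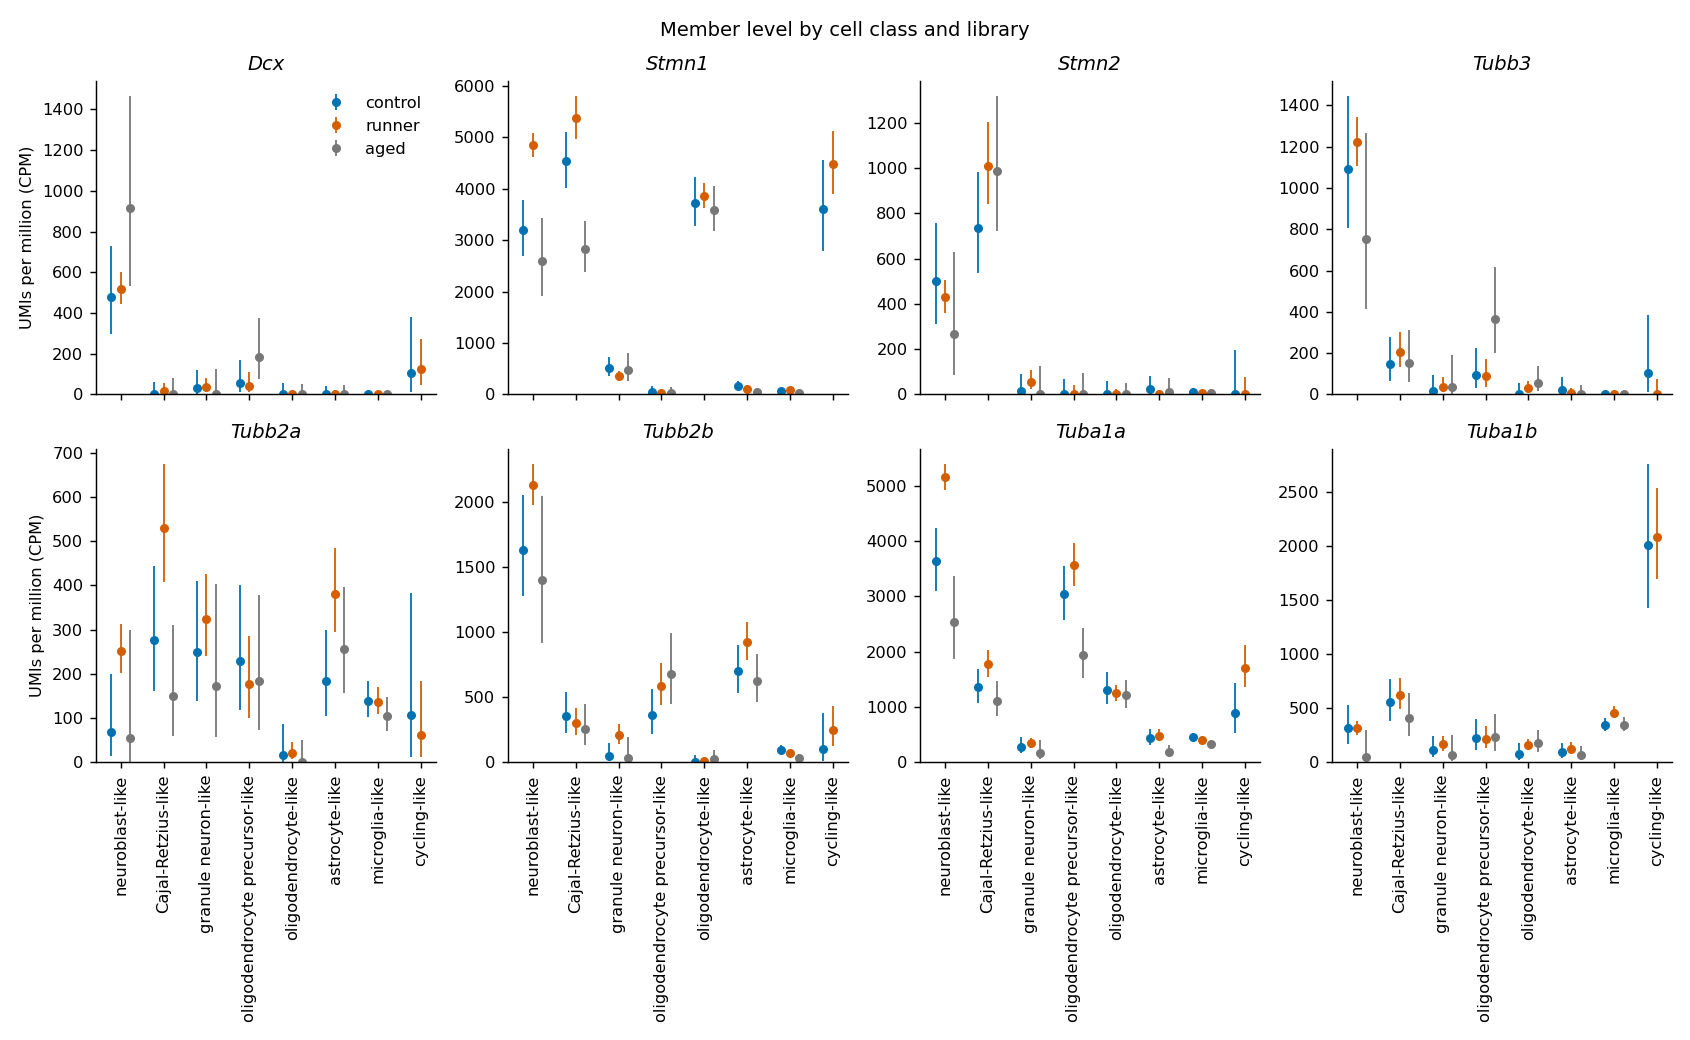
CPM of each gene by cell class (at least 10 cells) in the control, runner and aged libraries; points are 1 library each, bars the 95% Poisson interval, and the y axes differ between panels. Dcx and Tubb3 stand out in neuroblast-like cells, whereas Stmn1 is at 2586 CPM or more in every library of neuroblast-like, Cajal-Retzius-like and oligodendrocyte-like cells.

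The 8 genes were found together most often in neuroblast-like cells. After thinning to 1000 UMIs, a neuroblast-like cell carried a median of 5 of them and 166 of 204 carried 4 or more (81.4%). The median was 3 in Cajal-Retzius-like cells, of which 63 of 133 carried 4 or more (47.4%), and 2 in oligodendrocyte-like and precursor-like cells. Among 631 microglia-like cells 1 carried 4. The 8 genes summed to 10922, 14869 and 8565 CPM in neuroblast-like cells of control, runner and aged, 1.37-fold (1.21 to 1.56), 1.51-fold (1.42 to 1.61) and 1.45-fold (1.18 to 1.77) the sums of Cajal-Retzius-like cells.

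**Figure D2:**
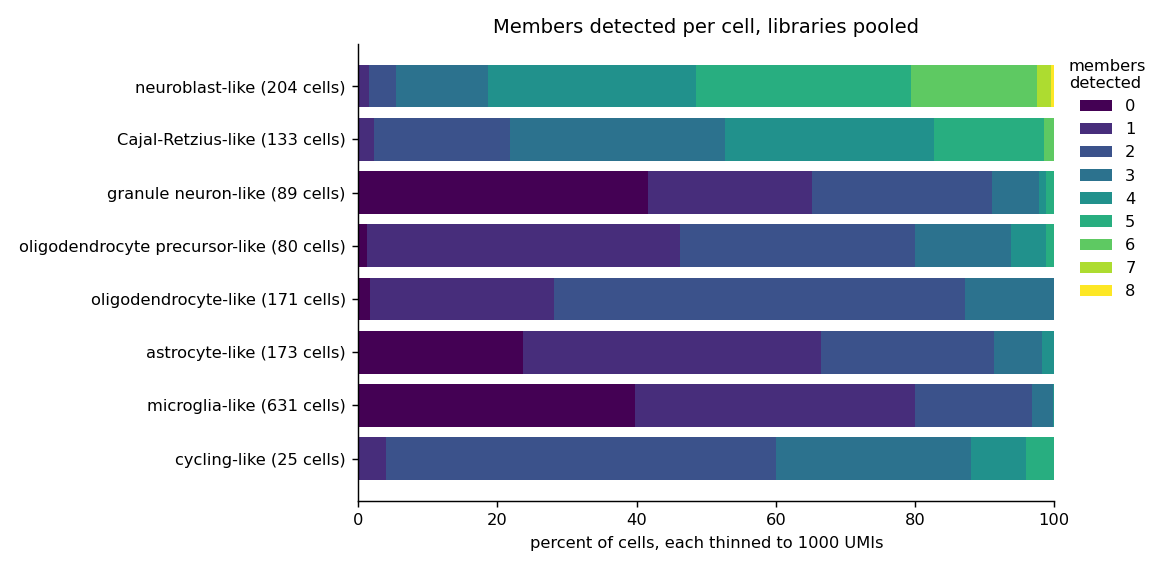
Percent of cells (x axis) of each class carrying 0 to 8 of the genes, with every cell thinned to 1000 UMIs and libraries pooled. Neuroblast-like cells center on 4 and 5 genes, while microglia-like and granule neuron-like cells mostly carry 0 or 1.

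Within the copy pairs, the share of each copy varied with the class. Tuba1a made up 92.0%, 94.3% and 97.9% of the Tuba1a and Tuba1b UMIs in neuroblast-like cells of control, runner and aged. It was 70.9%, 73.9% and 73.2% in Cajal-Retzius-like cells. In microglia-like cells its share was 57.2% in control (Clopper-Pearson interval 51.3 to 62.9), 47.1% in runner (42.7 to 51.6) and 48.0% in aged (40.9 to 55.2), so only the control interval lay above 50%. Tubb2b made up 96.0%, 89.4% and 96.3% of the Tubb2 pair in neuroblast-like cells and 79.2%, 70.9% and 71.0% in astrocyte-like cells. In Cajal-Retzius-like cells its share was 36.3% (27.0 to 46.4) in runner, against 56.4% (39.6 to 72.2) in control and 63.2% (38.4 to 83.7) in aged on 39 and 19 UMIs, so the copy with more UMIs there differed between libraries. Stmn2 was 13.9%, 15.8% and 25.8% of the stathmin pair in Cajal-Retzius-like cells and 13.5%, 8.14% and 9.43% in neuroblast-like cells. These shares are ratios of UMIs with the uncertainty of shared 3' stretches given above.

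**Figure D3:**
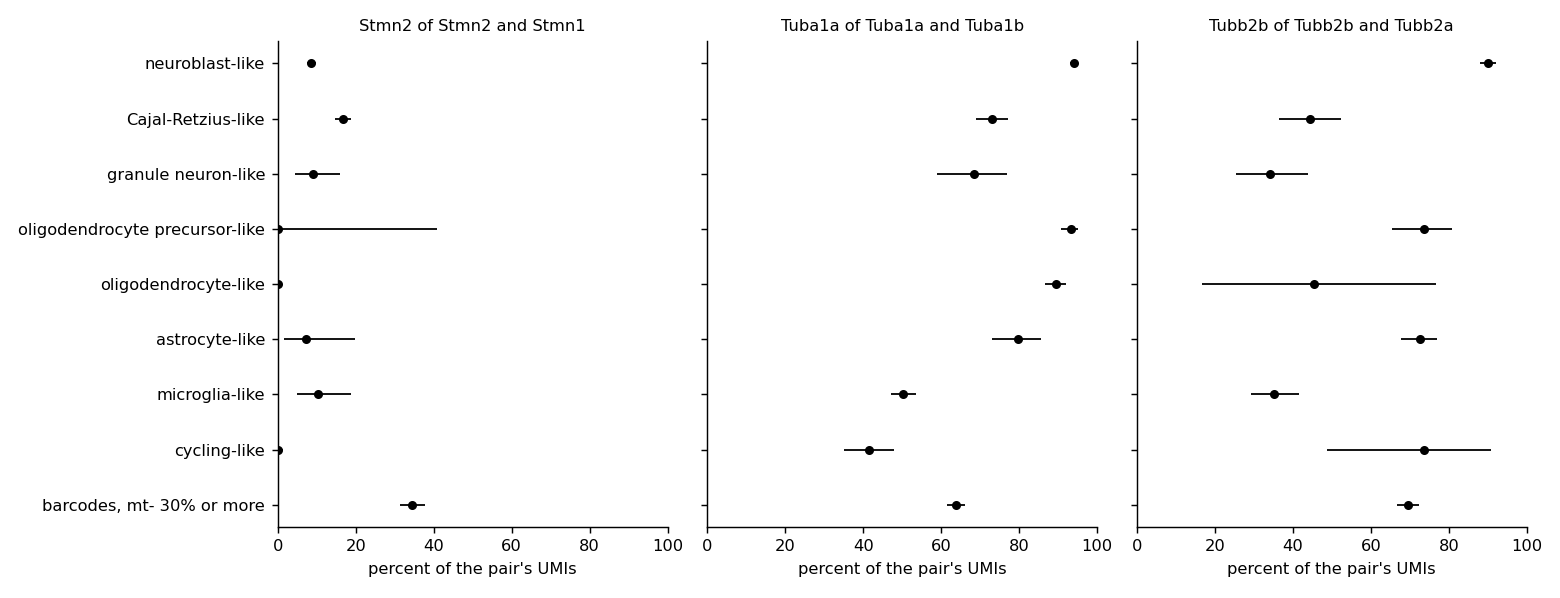
Share of a pair's UMIs (percent, x axis) from the named copy, by cell class and in barcodes with at least 30% mitochondrially encoded (mt-) UMIs; libraries are pooled and bars are Clopper-Pearson 95% intervals. The pooled Tuba1a share runs from 94.1% in neuroblast-like to 41.4% in cycling cells; pooled values weight the runner library most.

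Other microtubule genes were compared with the same classes. Of 73 with at least 50 UMIs, 17 were highest in neuroblast-like cells (23.3%), against 9.40% of 7828 genes, and 13 in oligodendrocyte-like cells (17.8%, against 7.45%). Among those named by abundance, Tubb5, a widely expressed β-tubulin, was highest in cycling (2852 CPM) and neuroblast-like cells (2692 CPM). Tubb4a (2148 CPM), Stmn4 (2309 CPM) and the tubulin tyrosine ligase-like gene Ttll7 (887 CPM) were highest in oligodendrocyte-like cells, the tubulin deacetylase Sirt2 in their precursors (2196 CPM), and the doublecortin-like kinase Dclk1 in astrocyte-like cells (1342 CPM). Between runner and control over all cells, 4 of 71 such genes with at least 50 UMIs were higher by 2-fold or more and 0 lower. That is 5.63%, near the 4.36% of all genes that were higher by the same rule. They were the collapsin response mediators Crmp1 (2.03, 1.31 to 3.26) and Dpysl3 (2.39, 1.42 to 4.28), the plus-end binding gene Clasp1 (2.02) and the kinesin Kif21a (2.34), the last 3 named after their values were seen. The other 6 tubulins had 0, and their median log2 ratio was 0.45. Without neuroblast-like cells 0 of 64 were higher by 2-fold, where 3.27% of all genes were.

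The genes whose pattern over the 25 pools was most like a given gene, out of 2541 candidates, were Sox11 for Dcx (r = 0.93), Cd24a for Tubb3 (0.86), Nnat for Tubb2b (0.89), Psmb6 for Tuba1a (0.89), Dek for Tuba1b (0.82), Cib2 for Stmn2 (0.84), Pafah1b2 for Stmn1 (0.78) and Lrp1 for Tubb2a (0.70). Sox11 and Cd24a are among the markers that named neuroblast-like cells, and Nnat is a leading gene of that class. Their matches are therefore not independent of how the pools were made.

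Over all cells used, Dcx, Tubb3 and Tubb2b were higher in the runner than in the control library. The CPM were 36.3 and 111 for Dcx in control and runner, 88.2 and 262 for Tubb3, and 276 and 601 for Tubb2b, which gave ratios of 3.05 (2.04 to 4.7), 2.97 (2.3 to 3.89) and 2.18 (1.88 to 2.53). These 3 genes were past 2-fold with at least 50 UMIs, and none was lower by that much. Over all genes tested, 4.36% were higher and 1.18% lower by the same rule, and the median log2 ratio was 0.90 for the 8 genes against 0.08 for all 6943 genes. Stmn1 was 1.93-fold (1.79 to 2.08) and Tuba1a 1.8-fold (1.66 to 1.96) higher, and Tuba1b 1.12-fold (0.967 to 1.3). A level over all cells cannot tell more cells of a type from more RNA per cell.

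Neuroblast-like cells were 6.25% of control cells (32 of 512), 17.8% of runner cells (171 of 963) and 3.07% of aged cells (12 of 391), and they held 75.0%, 89.8% and 70.8% of the Dcx UMIs. With these cells left out, 0 of the 7 genes with at least 50 UMIs were past 2-fold, where 3.27% of all 6174 genes tested were higher and 0.842% lower. Dcx had 27 UMIs there and could not be called. The runner to control ratios were 1.44 (0.586 to 4.04) for Dcx, 1.26 (0.738 to 2.24) for Tubb3 and 1.23 (1.01 to 1.51) for Tubb2b. Stmn1 had a ratio of 1.48 (1.36 to 1.62). Oligodendrocyte-like cells, which carry much of it, were 7.23% of control and 11.3% of runner cells, and Stmn1 within them was 1.04-fold (0.898 to 1.2). Cajal-Retzius-like and cycling cells also carried much of it, and their CPM, given above, was higher in runner than in control. The part of each class in the Stmn1 ratio was not tested.

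Within neuroblast-like cells Dcx (1.09, 0.692 to 1.81) and Tubb3 (1.12) had intervals that included 1. Stmn1 was 1.51-fold (1.27 to 1.81), Tuba1a 1.42-fold (1.21 to 1.68) and Tubb2b 1.31-fold (1.02 to 1.69) higher in the runner library. Tubb2a had 86 UMIs against 3 and a ratio of 3.71 (1.23 to 18.3). Of all genes tested in these cells, 9.06% were higher and 1.64% lower by 2-fold, and 1 of the 8 genes was. The libraries also differed in other respects within this class: median depth was 1379.5 UMIs in control and 1979 in runner, all 12 astrocyte markers together measured 1975 CPM in control against 1084 in runner with 3 and 0 markers at 0, and Calb2, the gene of calretinin, measured 249.8 and 1780.0 CPM. Their part in these ratios was not tested.

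Split by Calb2, chosen after its values were seen, the runner's 130 neuroblast-like cells with a Calb2 UMI had more Tubb2a (3.64-fold, 1.69 to 9.35), Stmn2 (2.16-fold), Tubb2b (2.00-fold), Tubb3 (1.81-fold) and Dcx (1.58-fold) than the 41 without, and less Stmn1 (0.867, 0.777 to 0.969). Among cells without Calb2 (26 control, 41 runner), the runner had more Stmn1 (1.65-fold, 1.34 to 2.05) and Tuba1a (1.67-fold) and less Stmn2 (0.425, 0.213 to 0.848), with Dcx at 0.75 (0.401 to 1.45). Control had 6 cells with Calb2. The runner's cells with and without Calb2 had median depths of 1987.5 and 1954 UMIs.

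**Figure D4:**
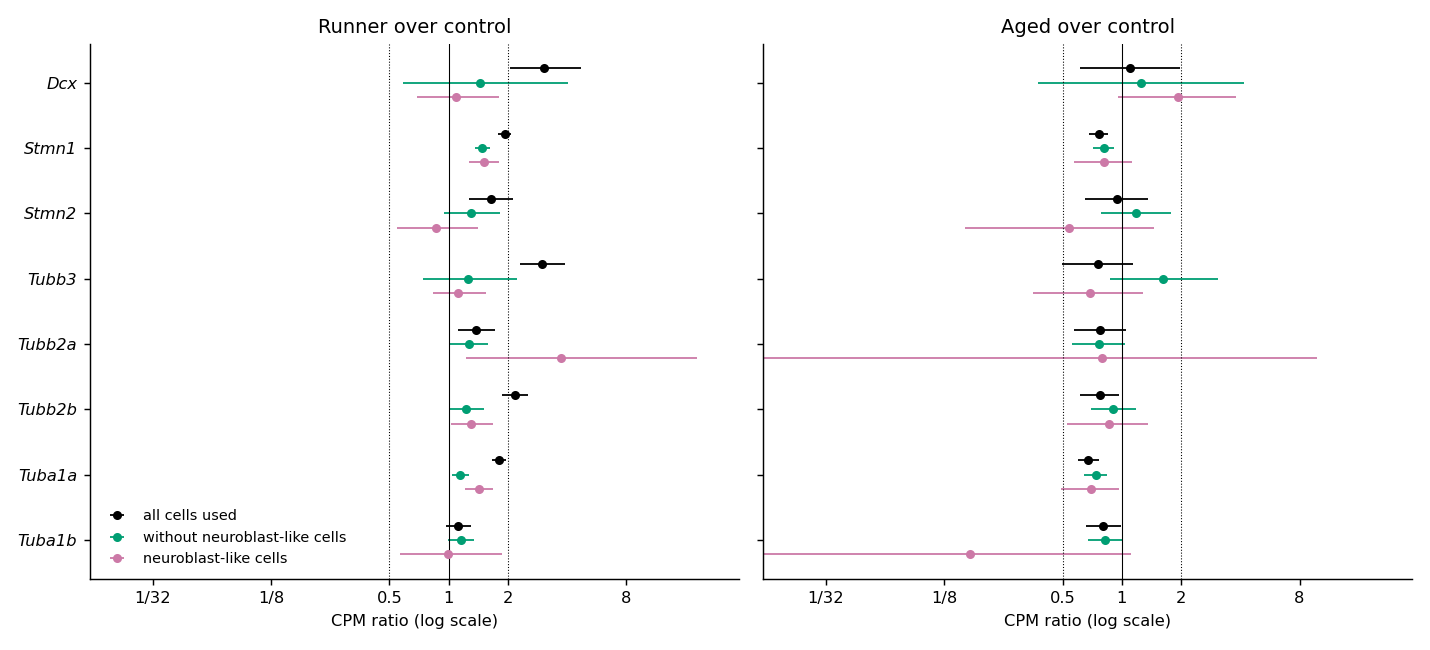
CPM ratio to control (log axis) for the runner library (left) and the aged library (right) over all cells used, without neuroblast-like cells and within them; bars are 95% intervals, 2 of which run past the left edge on the right panel, and dotted lines mark 2-fold. Dcx and Tubb3 lie near 3 for the runner over all cells; without neuroblast-like cells they lie at 1.44 and 1.26, and within them at 1.09 and 1.12, all with intervals that include 1.

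The aged library was set against the same control library as the runner. In it, none of the 8 genes was past 2-fold in either direction over all cells, where 1.56% of genes were higher and 1.51% lower. Tuba1a was lower (645 against 956 CPM, ratio 0.675, 0.595 to 0.764), as were Stmn1 (0.762, 0.679 to 0.854), Tubb2b (0.772, 0.615 to 0.966) and Tuba1b (0.806, 0.658 to 0.986). Dcx was at 1.1 (0.611 to 1.97) on 24 and 28 UMIs. The median log2 ratio of the 8 genes was -0.37 against -0.0050 for all 4228 genes. Within classes, Stmn1 was lower in Cajal-Retzius-like cells (0.625, 0.504 to 0.772), and in oligodendrocyte-like cells its ratio was 0.965 (0.807 to 1.15). Tuba1a was lower in oligodendrocyte precursor-like cells (0.638, 0.478 to 0.846). In astrocyte-like cells Tuba1a had 15 UMIs in aged and 38 in control (193 and 437 CPM), a ratio of 0.441 (0.225 to 0.82). It was 1 of 2 genes with enough UMIs in that class, where 1.28% of all genes were higher and 1.54% lower by 2-fold. Between runner and control in astrocyte-like cells, Tubb2a was 2.07-fold (1.19 to 3.83) higher on 67 and 16 UMIs, 1 of 3 genes tested, where 2.51% of all genes were higher and 1.18% lower. Precursor-like cells without a UMI of the precursor genes Pdgfra or Cspg4, a split also chosen after the values were seen, had 2.43-fold (1.76 to 3.37) the Tuba1a of the others in control, 2.07-fold (1.65 to 2.61) in runner and 0.867 (0.412 to 1.66) in aged. Over all libraries these 28 cells were deeper than the other 63, with a median of 2540.5 against 1826 UMIs.

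Barcodes with at least 30% of mitochondrially encoded UMIs numbered 1381 in control, 2118 in runner and 1815 in aged. CPM there are over the UMIs that are not mitochondrial. Dcx stood at 3.37, 10.6 and 1.21 CPM (2, 9 and 1 UMIs), which was 0.0917, 0.0983 and 0.0304 of its level in barcodes under 10%. Stmn1 was at 0.273, 0.126 and 0.251 of that level in control, runner and aged, Tubb3 at 0.623, 0.245 and 0.587, and Tuba1a at 0.498, 0.303 and 0.621, so these 4 genes were lower in every library. The other 4 genes did not move the same way in all libraries. Tubb2b was higher in control (1.31, 1.08 to 1.59), at 1.22 (0.984 to 1.53) in aged and lower in runner (0.576, 0.504 to 0.656). Tuba1b was lower in control (0.622) and runner (0.741) and at 1.15 (0.942 to 1.41) in aged. Stmn2 was at 1.2 (0.853 to 1.68) in control, lower in runner (0.79, 0.625 to 0.991) and higher in aged (1.48, 1.07 to 2.07). Tubb2a was at 0.914, 0.81 and 0.939, below 1 beyond counting error in runner alone. Stmn2 made up 28.8%, 32.7% and 41.3% of the stathmin pair in control, runner and aged, against 8.44%, 7.22% and 10.6% in barcodes under 10%. In these barcodes astrocyte markers measured 16902, 17744 and 16195 CPM and granule neuron markers 7186, 8537 and 6656 CPM, against 426, 430.4 and 366 CPM of neuroblast markers; in barcodes under 10% these lists measured 4669, 1941 and 1357 CPM pooled. Their part in these ratios was not tested.

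Runner and control lay closer together in these barcodes for Tubb3, at 1.13 (0.717 to 1.8), and for Tubb2b, at 0.924 (0.772 to 1.11), than in the cells used. Dcx had 9 runner and 2 control UMIs, a ratio of 3.16 (0.654 to 30.1) that leaves both directions possible. Of the 7 genes with enough UMIs, 0 were past 2-fold in the runner library, where 3.1% of all genes were higher and 2.21% lower, and 0 in the aged library, where 1.66% were higher and 1.13% lower. The aged library had 1.48-fold (1.19 to 1.85) more Tuba1b and 0.696 (0.56 to 0.866) times the Stmn1 of control.

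**Figure D5:**
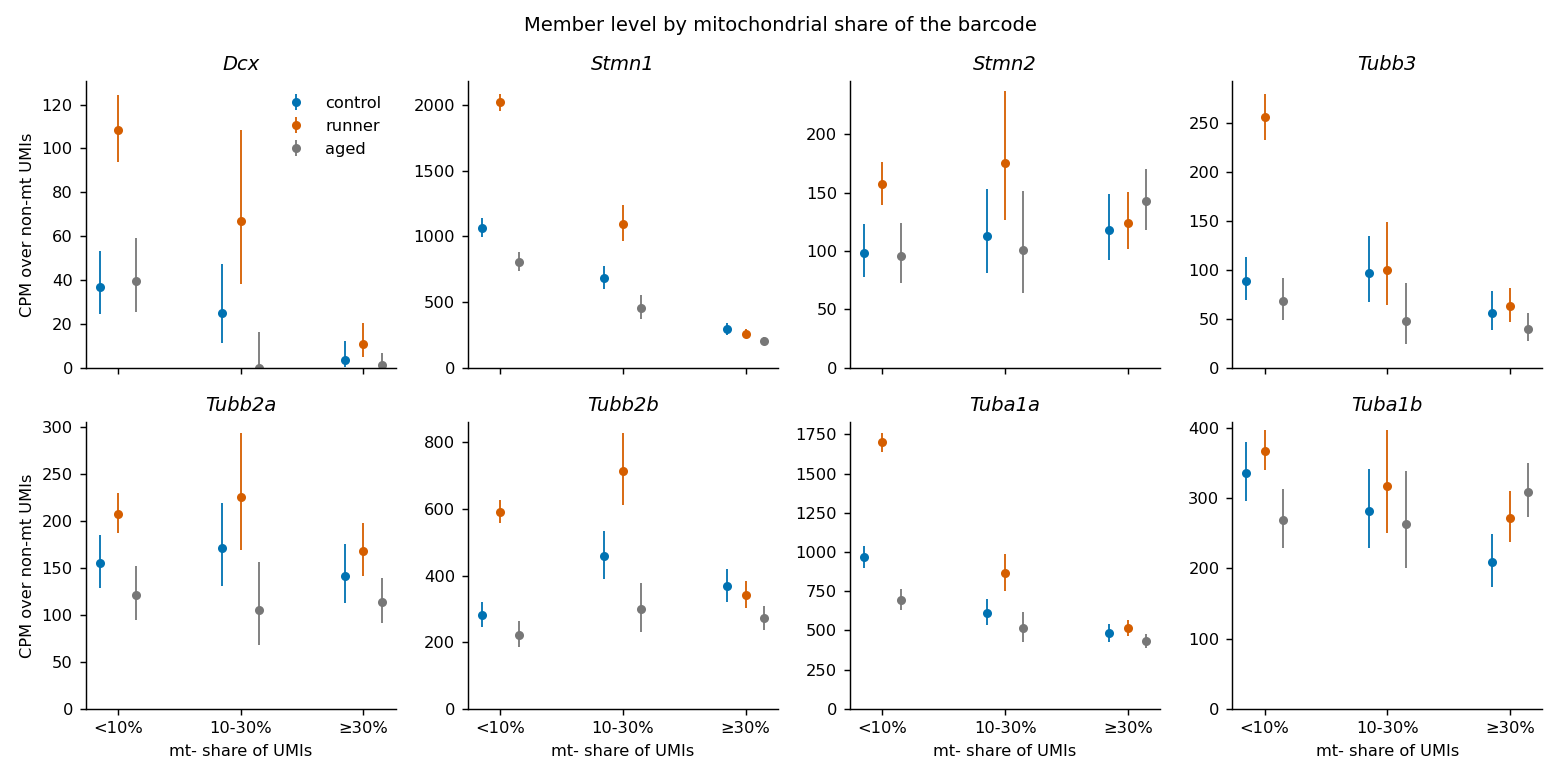
Level of each gene as CPM over non-mitochondrial UMIs (y axis) in barcodes grouped by mitochondrial share (x axis), for the 3 libraries; bars are 95% Poisson intervals. The runner's higher Dcx, Tubb3, Tubb2b and Stmn1 levels appear in barcodes under 10%; from 10 to under 30% Stmn1 (1097 against 681 CPM), Tubb2b (713 against 458) and Dcx (66.7 against 24.8) are still higher in runner than control, while Tubb3 is at 100.1 and 96.5.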

How the data were processed

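Droplet libraries (10x Genomics Chromium 3' version 2, per the labels) were made from trypsin-digested dentate gyrus, 1 per group. The build GRCm38 and the tools Cell Ranger 2.1.1 and Seurat 3.1.0 are named by the submitters' processing notes, with no step or annotation release. The authors deposited raw UMI counts per gene symbol and barcode.

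Doublet calls (Scrublet, expected rate 0.05) were removed. The 2000 most variable genes, without the 105 microtubule genes, were reduced to 30 principal components and clustered with 15 neighbours at resolution 1 (Scanpy 1.11.5, leidenalg 0.10.2), with no batch correction. A cluster was named from 23 marker lists when at least 3 markers were detected at 2-fold or more. Levels have exact Poisson intervals, shares Clopper-Pearson intervals and CPM ratios exact conditional binomial intervals, all at 95% (SciPy 1.17.1), tested on simulated data. A gene counted as past the fold at 2-fold with at least 50 UMIs in the 2 libraries. Named genes were all 8 genes, the 2 most abundant genes of each of 9 microtubule lists, and the best-correlated genes over class pools. The genes and lists were chosen with earlier results of these data known. Positions and coding sequences came from GENCODE on GRCm38. A few items are not reported here.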

Additional observations from a re-analysis of the deposited data

How the results depend on the processing

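No paired analysis was possible because each group is 1 library. For the same reason no library could be left out, and depth limits Dcx, Stmn2 and Tubb2a most within the 32 control and 12 aged neuroblast-like cells. The count of genes at least 2-fold higher in runner than control (3) became 6 at a fold of 1.5, 5 with the aged library as the reference, and 5 with a mitochondrial limit of 5%; the cause of the last was not tested. It became 0 without neuroblast-like cells, an alternative added after seeing the data, as did the count of other microtubule genes (4, then 0). It stayed at 3 under the other alternatives, and the count lower in aged stayed at 0 under every alternative. Except where neuroblast-like cells were left out, both counts are over all cells and do not use the class calls. Changes of resolution, of the genes clustered or to per-cell calls could therefore not alter them. Resolutions 0.5 and 2.0 and keeping the microtubule genes also gave 32, 171 and 12 neuroblast-like cells, as in the main run. Dcx was found in 21.9% of neuroblast-like cells thinned to 500 UMIs instead of 40.2%, since fewer UMIs were kept. The summed level in mitochondria-rich over mitochondria-poor barcodes was 0.386, with 0.328 at a limit of 50% and 0.211 over all UMIs, where mitochondrial UMIs enter the total. The number of genes highest in neuroblast-like cells was 4, or 5 with a 20% mitochondrial limit or per-cell class calls. The 344 values for single genes include ratios over all cells, which changes to the class calls alone could not move. Of the 344, 303 stayed within the interval of the main value and 41 moved beyond it. None that was past 2-fold crossed 1, but smaller ratios did: without neuroblast-like cells Tubb3 in aged over control went from 0.756 to 1.63, and with aged as the reference the runner ratios within neuroblast-like cells went from 1.09 to 0.568 for Dcx, 0.858 to 1.59 for Stmn2 and 0.989 to 5.83 for Tuba1b, while every other crossing lay within the interval. The Tubb2a ratio of 3.71 within neuroblast-like cells was 1.04 at the 20% limit, and that of Tuba1a (1.42) was 1.11 with per-cell calls and 1.77 at the 5% limit; the cause was not tested.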
